A study of Arabidopsis thaliana with 30 samples.

Results

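Leaf transcriptomes of the Arabidopsis thaliana mutants msh1 and cue1, both grown in 16 h days, were set directly against each other, so that each gene was read as msh1 minus cue1 with no wild type in the contrast. The members were all libraries that the titles name msh1 16-hr, 3 of the 30 in the series, and the comparison group was all libraries named cue1 16-hr, also 3. The groups were msh1 in ecotype Col-0 and cue1 in ecotype Col-0, and the Col-0 wild type of the same set (3 libraries) entered the fit and is given as a level. All 9 were labelled as leaf at bolting, from soil at 22 °C by day and 20 °C by night in 120 to 150 µmol per square metre per second of light, without the warmth treatment used elsewhere in the study, and the 3 replicates of a group were full siblings. The series text speaks of aboveground tissue at bolting or flowering where the sample labels say leaf. No label or series text used here names the alleles or the hour of harvest.

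MSH1 encodes a nuclear MutS homologue that is imported into both plastids and mitochondria and restrains recombination between repeats in their genomes. CUE1 encodes the phosphoenolpyruvate/phosphate translocator of the inner plastid envelope, which brings phosphoenolpyruvate into the plastid as a precursor for the shikimate pathway, and through it for aromatic amino acids, phenylpropanoids and flavonoids. Mutants of both genes have altered plastids, and defects in organelles are known to change nuclear transcription through retrograde signals, of which the induction of alternative oxidase and other mitochondrial stress genes is a textbook case.

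The mutated genes were read first. CUE1 (chr5:12588741-12591748 in TAIR10.1) had 151, 186 and 199 CPM (counts scaled to library size) in the msh1 libraries, against 15.2, 14.9 and 15.9 CPM in the cue1 libraries and 199, 214 and 205 CPM in wild type. Every cue1 library lay below every other library (log2 fold change 3.54, SE 0.12, adjusted p = 3.36e-08; edgeR quasi-likelihood test with Benjamini-Hochberg adjustment, as for every adjusted p below). MSH1 (chr3:8822924-8829728) had 25.2, 28.6 and 25.1 CPM in the msh1 libraries, against 12.4, 13.1 and 12.9 CPM in cue1 and 9.57, 9.61 and 10.3 CPM in wild type. The gene's own transcript was thus higher, not lower, in the libraries labelled msh1 (log2 fold change 1.03, SE 0.09, adjusted p = 0.000108). Counts per gene do not show where along MSH1 the reads lie, so they check the cue1 label and leave the msh1 label as the submitters give it. The strand setting of the counting is stated nowhere in the labels, so reads of a named gene cannot be told from those of an antisense gene, and the share of exon length so covered is given where it is large. It was 0.178 to 0.295 for LUX, TIM10, LAC17 and COR15B.

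Of 20785 genes tested, 4575 passed an adjusted p of 0.05 between msh1 and cue1 (called below), which is 22% of the genes tested. In msh1, 2118 genes were higher (10.2%) and 2457 lower (11.8%), and the median log2 fold change over all genes was 0.004. These shares are the background for each count of list members between the mutants below. Larger changes lay mostly on the lower side: 42 called genes were higher by a log2 fold change of at least 2, and 236 were lower by as much. Another 1785 called genes (39% of those called) differed by less than 0.5. Against the shared wild type, msh1 differed in 33.4% of genes and cue1 in 6.75%. Each library held 17568323 to 22275044 counts on genes, 48% to 48.6% of entries fell on no gene, and all plastid and mitochondrial genes were at 0 in every library. The first principal component (48.1% of the variance) separated the msh1 libraries (51.2 to 56.2) from cue1 (-17.6 to -8.35) and wild type (-46.2 to -30.2), and cue1 replicate 3 stood apart on the second, at -49.3.

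**Figure D1:**
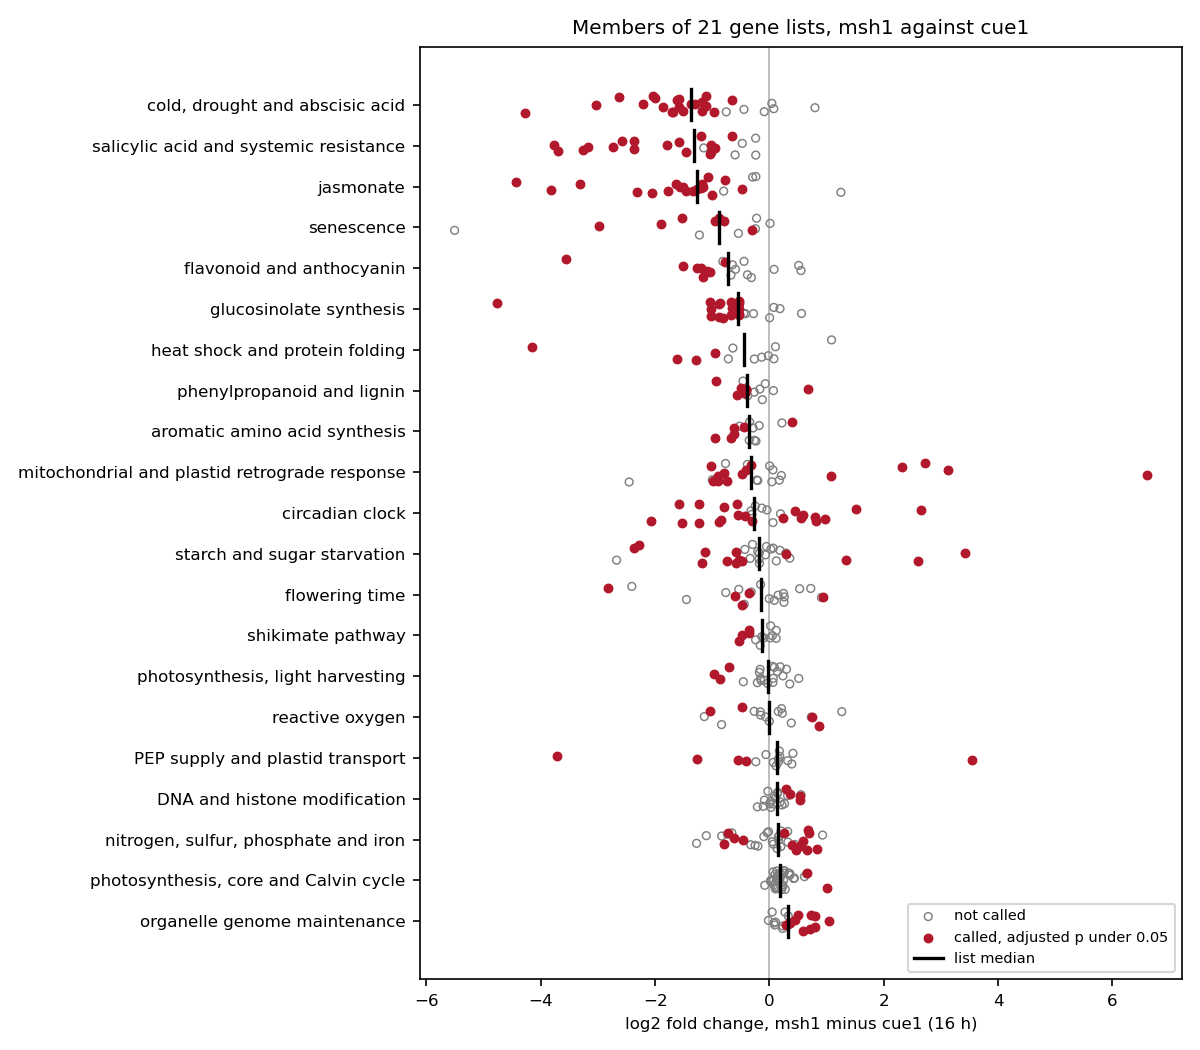
Log2 fold change (msh1 minus cue1, horizontal axis) of each tested member of 21 gene lists, ordered by list median (black bar); filled points were called and open points were not. The cold, drought and abscisic acid, salicylic acid and jasmonate lists lie far to the left, with medians of -1.374, -1.326 and -1.265, and the organelle genome maintenance list lies to the right, at 0.331.

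AT5G09570, annotated as a Cox19-like protein with the CHCH fold of small proteins of the mitochondrial intermembrane space, had 7.97, 15.4 and 26.1 CPM in msh1, against 0.263, 0.231 and 0 CPM in cue1 and 0, 0.0612 and 0.282 CPM in wild type. It was near absent from both cue1 and wild type and present in every msh1 library (log2 fold change 6.61, SE 0.66, adjusted p = 0.000195). AT2G21640, annotated as a marker of the oxidative stress response, had 20.9, 25.7 and 34.9 CPM in msh1, 5.79, 6.46 and 4.11 CPM in cue1 and 3.52, 6.18 and 7.29 CPM in wild type, with no overlap between the mutants (log2 fold change 2.32, SE 0.26, adjusted p = 0.000365). AT5G51440, an HSP20-like small heat shock protein, had 4.5, 6.09 and 7.28 CPM in msh1, 0.438, 1.21 and 0.462 CPM in cue1 and 0.684, 0.612 and 0.423 CPM in wild type (log2 fold change 3.12, SE 0.36, adjusted p = 0.000425). In these 3 genes the cue1 libraries overlapped wild type and every msh1 library lay above both.

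Alternative NAD(P)H dehydrogenases, single-protein enzymes that bypass complex I of the respiratory chain, moved both ways. Of 7 tested, 2 were higher and 3 lower in msh1. The 2 higher genes, NDB4 and NDB3, passed the filter on low counts only through the msh1 libraries, so these counts are a description. NDB4 had 4.95, 5.26 and 12.9 CPM in msh1, 0.482, 2.77 and 0.416 CPM in cue1 and 0.0526, 0.122 and 0.188 CPM in wild type (log2 fold change 2.72, SE 0.60, adjusted p = 0.0102). NDB3 had 1.78, 1.27 and 3.11 CPM in msh1, 0.132, 0.115 and 0.416 CPM in cue1 and 0.105, 0.184 and 0.282 CPM in wild type (log2 fold change 3.15, SE 0.54, adjusted p = 0.00282). NDA1, NDA2 and NDB2 fell, with log2 fold changes of -1.02, -0.74 and -0.91. NDA2 was not called without msh1 replicate 1 (adjusted p = 0.0696), msh1 replicate 3 (0.0734) or cue1 replicate 3 (0.0663). AOX1A, the alternative oxidase most often used to read mitochondrial retrograde signalling, had 35.6, 33.2 and 45.1 CPM in msh1, 43.7, 58.1 and 47.1 CPM in cue1 and 50.2, 54.7 and 34.7 CPM in wild type. The mutants overlapped and the gene was not called (log2 fold change -0.39, SE 0.17, adjusted p = 0.132). AOX1C, a minor alternative oxidase, was called higher (log2 fold change 1.08, SE 0.31, adjusted p = 0.0297) but not with msh1 replicate 2 or 3 or cue1 replicate 1 or 3 left out (adjusted p 0.0727 to 0.104).

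**Figure D2:**
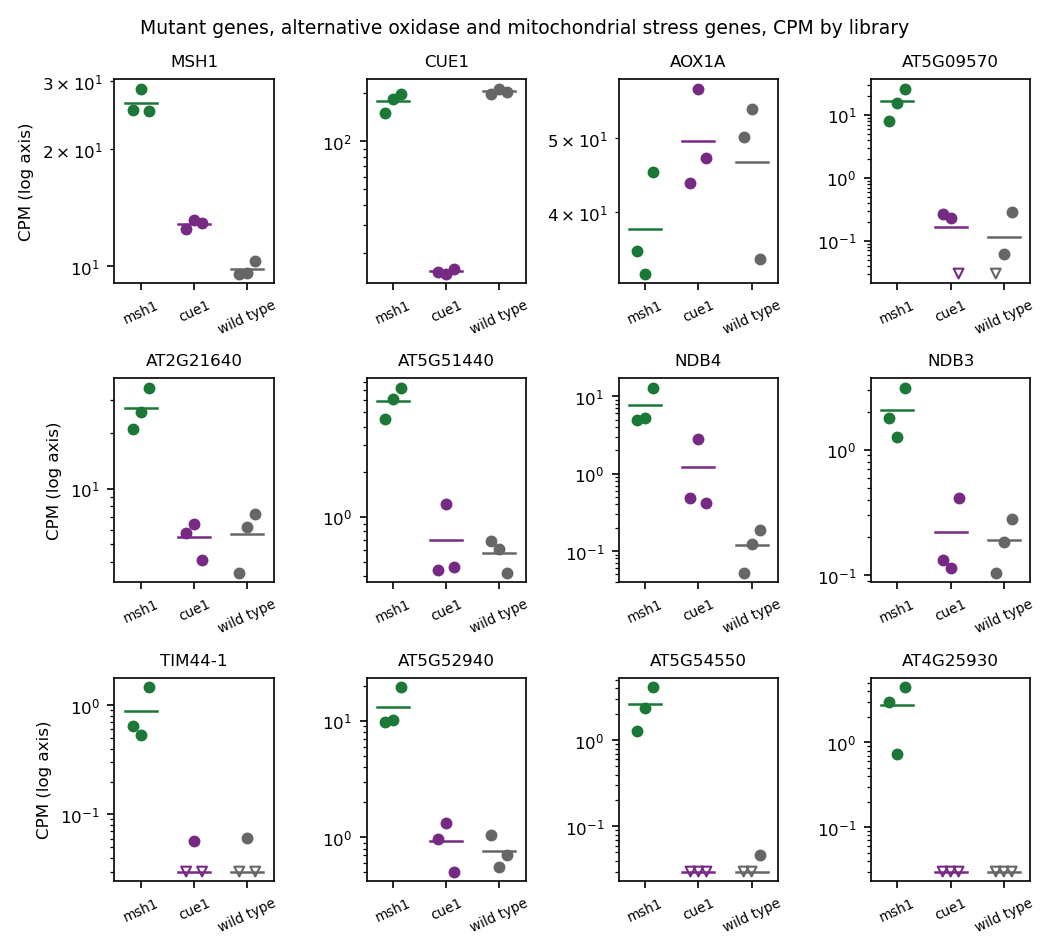
CPM (log axis) of 12 genes in each library of msh1, cue1 and wild type, with the group mean as a bar and libraries at 0 as open triangles on the lower edge. CUE1 is low in cue1 alone, MSH1 is highest in msh1, AOX1A overlaps between the mutants, and in the other 9 genes every msh1 library lies above every cue1 and wild-type library.

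Genes annotated as translocases of the mitochondrial membranes were called in one direction. Of 34 tested, 14 were called higher (against 10.2% of all genes) and 0 lower (against 11.8%), with a median log2 fold change of 0.273. The set was taken by annotation text and holds the wider Tim17/Tim22/Tim23 family, with OEP16-3. Whether each product acts in mitochondria was not checked. Some of the 14 moved little, such as TIM13 (0.40) and TOM20-2 (0.40), which lost their calls without single libraries (adjusted p up to 0.0581 and 0.0711). TIM10, whose product chaperones proteins across the intermembrane space, had 17.1, 18.7 and 22.8 CPM in msh1, 11.6, 14 and 13.3 CPM in cue1 and 11.2, 13.1 and 14.2 CPM in wild type (log2 fold change 0.59, SE 0.13, adjusted p = 0.0105). Others moved far. TIM44-1, for a subunit that docks the import motor at the inner membrane, had 13, 11 and 28 counts in msh1, against 0, 1 and 0 counts in cue1, a ratio of library-scaled counts of 53.9 (95% interval 9.25 to 2170 from counting error alone). TOM7-2 (log2 fold change 2.15, SE 0.42, adjusted p = 0.00556) and TIM23-3 (log2 fold change 2.19, SE 0.45, adjusted p = 0.00701) followed, at means of 2.52 ± 0.335 and 0.969 ± 0.222 CPM in msh1 (SD, n = 3), against 0.561 ± 0.0833 and 0.202 ± 0.097 CPM in cue1.

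Of 16 tested genes for hypothetical proteins with the DUF295 domain, 7 were higher and 1 lower in msh1 (against 10.2% and 11.8% of all genes), and 8 did not pass. Of the 7, AT4G25930, AT5G53230, AT5G54450, AT5G54550 and AT5G54560 passed the filter on low counts only through the msh1 libraries. TIM44-1 and TIM23-3 did so among the translocases. The counts of both families are therefore a description. AT5G52940 had 9.85, 10.2 and 19.7 CPM in msh1, 0.964, 1.33 and 0.508 CPM in cue1 and 1.05, 0.551 and 0.706 CPM in wild type (log2 fold change 3.84, SE 0.37, adjusted p = 0.000166). AT4G25930 and AT5G54550 had means of 2.75 ± 1.91 and 2.61 ± 1.45 CPM in msh1 and were at 0 in all 3 cue1 libraries, so that they were at least 56.6-fold and at least 53.8-fold higher in msh1, from a floor of 3 counts over the cue1 group. AT5G53230 (132 counts over msh1 and 3 over cue1, ratio 45.6, 95% interval 15.3 to 224), AT5G54450 (133 and 2, ratio 68.9, 18.7 to 575) and AT5G54560 (114 and 1, ratio 118, 20.8 to 4700) were much alike. The exception was AT1G64840, an F-box protein with the same domain (log2 fold change -0.40, SE 0.12, adjusted p = 0.037), which was not called with any one msh1 library, cue1 replicate 3 or wild-type replicate 2 left out (adjusted p 0.0538 to 0.13).

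The promoters of the genes that rose most were read for the mitochondrial dysfunction motif, which NAC transcription factors such as ANAC013 and ANAC017 are known to bind. It was searched as CTTG and, after any 5 bases, CAAG or CACG, on both strands, from 250 bases before to 50 after each RefSeq gene start in TAIR10.1, and this search, like the choice of both families above, was added after the values were seen. The motif was in 240 of 20780 promoters (1.15%), in 39 of the 2117 genes called higher (1.84%) and 28 of the 2456 called lower (1.14%). It was in 12 of the 42 genes called higher by at least 2 on the log2 scale (28.6%), and in 2 of the 236 called lower by as much (0.847%). Both sets were picked by these same fold changes, so the shares are a description. The stretch around each of the 12 matches is shown, 5′ to 3′ on the gene's strand from RefSeq TAIR10.1, since these are the matches counted; capitals mark the match, which may lie on either strand.
AT5G09570, chr5:2970503-2970531, plus strand: gcaagaaaCGTGACGGGCAAGgggaatat
AT5G51440, chr5:20891045-20891073, plus strand: ttattttaCTTGGAGACCACGcagttcta
AT2G21640, chr2:9254319-9254347, plus strand: tttagtaaCTTGCTCTCCAAGgagatcta
AT2G28815, chr2:12368081-12368109, minus strand: atcttcagCTTGAGCAGCAAGttctatag
NDB3, chr4:11439612-11439640, minus strand: actcttgcCGTGGCCGTCAAGtcaaacca
AT2G42065, chr2:17553063-17553091, minus strand: ggacagtcCTTGGAGACCAAGcaaaaatt
AT2G03130, chr2:940566-940594, plus strand: aattattgCTTGGAGAGCAAGttgtgtgt
AT3G58150, chr3:21534140-21534168, minus strand: aaaatttcCTTGCACGGCAAGgtctgatt
AT4G25930, chr4:13168041-13168069, plus strand: attgtgaaCTTGGTGCCCAAGgccatctc
AT5G53230, chr5:21598718-21598746, plus strand: tttggaaaCTTGGTGGGCAAGacagagca
AT5G54450, chr5:22109476-22109504, minus strand: tccaaaaaCTTGGCGGACAAGgcaatttc
AT5G54550, chr5:22158298-22158326, plus strand: attgaagaCTTGGTGGGCAAGgccattgc
Of these genes, 4 are DUF295 genes, and 2 of those, AT5G53230 and AT5G54550, share the same 13 letters. All 4 passed the filter on low counts only through the msh1 libraries, and so did at least AT5G09570 and NDB3 of the genes shown. AT2G28815 is annotated as a 50S ribosomal protein L16 (log2 fold change 2.97, SE 0.39, adjusted p = 0.000771), AT2G42065 as a DnaJ protein (3.24), AT2G03130 as a ribosomal protein L12 or ClpS family member (4.25; 8.55 without cue1 replicate 2) and AT3G58150 as an optic atrophy 3 protein (2.39). The motif did not go with a rise in every gene. AOX1A holds 2 matches, one of them the same 13 letters as in AT2G21640, and was not called, and NDA1, NDB2, CYP81D8 and ANAC017 hold 1 each and were lower in msh1. In the list of retrograde genes 3 of the 5 called higher and 4 of the 9 called lower (44.4%) hold it, and so does DIP2, one of the genes that fell most. The matches in AOX1A and NDA1 are shown for comparison with the genes that rose.
AOX1A, chr3:7906510-7906538, plus strand: atctagctCTTGGCGACCACGcaagtatc
AOX1A, chr3:7906537-7906565, plus strand: tcttccatCTTGCTCTCCAAGaaaaatct
NDA1, chr1:2204026-2204054, plus strand: tgtcgtttCTTGCGCATCAAGttctgctg
A match is a description of the letters and not of binding.

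The wider list of mitochondrial and plastid retrograde genes did not move one way. Of 25 tested, 5 were higher and 9 lower in msh1, with a median of -0.329 (-0.117 without cue1 replicate 2). Among the 5, AT5G09570 and NDB4 passed the filter on low counts only through the msh1 libraries. Beside the genes above, GUN4, a regulator of magnesium chelatase in chlorophyll synthesis whose exons lie under an antisense gene for 0.73 of their length, had 63.8, 64.2 and 79.1 CPM in msh1, 112, 137 and 112 CPM in cue1 and 217, 229 and 208 CPM in wild type (log2 fold change -0.80, SE 0.12, adjusted p = 0.00125). SAL1, a phosphatase that degrades the plastid signal PAP, was lower too (log2 fold change -0.42, SE 0.08, adjusted p = 0.00622), and OM66, an outer mitochondrial membrane AAA protein, had a log2 fold change of -0.91. OM66 lost its call without msh1 replicate 1 (adjusted p = 0.0629) or 2 (0.0576) and moved to -0.60 without cue1 replicate 3. The count of 9 lower members was 5 without msh1 replicate 1, msh1 replicate 3 or cue1 replicate 3.

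Of 21 tested genes that maintain organelle DNA, 11 were higher and 0 lower in msh1 and 10 did not pass, with a median of 0.331. The 11 include MSH1 itself, described above. The 3 Whirly genes, for single-stranded DNA binding proteins of plastids and mitochondria, rose: WHY1 had 36.7, 34 and 36.5 CPM in msh1, 24.1, 27.1 and 27.7 CPM in cue1 and 18.8, 24.3 and 23.6 CPM in wild type (log2 fold change 0.44, SE 0.10, adjusted p = 0.0128). WHY2 (log2 fold change 0.59, SE 0.11, adjusted p = 0.00423) and WHY3 (log2 fold change 0.79, SE 0.16, adjusted p = 0.00607) likewise had no msh1 library within the cue1 range. Of the organelle gyrase, which untwists DNA, GYRA had 96, 96.5 and 110.1 CPM in msh1, 56.7, 70 and 58.4 CPM in cue1 and 46.6, 46.8 and 59.6 CPM in wild type (log2 fold change 0.71, SE 0.12, adjusted p = 0.00257). GYRB2 rose as well (log2 fold change 0.81, SE 0.11, adjusted p = 0.00111). AT1G30680, which holds the toprim domain of primases, was higher (log2 fold change 0.74, SE 0.09, adjusted p = 0.00064), as was OSB3, an organelle single-stranded DNA binding protein with 0.515 of its exon length under an antisense gene (log2 fold change 0.50, SE 0.09, adjusted p = 0.00383). The recombinases RECA1, RECA2 and RECA3 were not called, at log2 fold changes of 0.05, 0.23 and 0.27.

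Around CUE1 itself, 16 genes for the supply of phosphoenolpyruvate were tested: CUE1 was the 1 called higher and 4 were lower in msh1, so that 31.2% were called, against 22% of all genes. GPT2, a plastid glucose-6-phosphate translocator that is induced by sugar, had 1.39, 1.12 and 1.69 CPM in msh1, 13.8, 9.28 and 31.9 CPM in cue1 and 5.58, 5.39 and 13.6 CPM in wild type. Every cue1 library was above every msh1 library, and wild type overlapped cue1 (log2 fold change -3.72, SE 0.53, adjusted p = 0.00121). PPDK, pyruvate orthophosphate dikinase, which makes phosphoenolpyruvate from pyruvate, had 40.1, 52.5 and 43.1 CPM in msh1, 117, 86.7 and 124 CPM in cue1 and 199, 198 and 134 CPM in wild type (log2 fold change -1.27, SE 0.18, adjusted p = 0.00111). PPT2, the second phosphoenolpyruvate translocator, was lower in msh1 (log2 fold change -0.56, SE 0.13, adjusted p = 0.0116). So was PPC1, a phosphoenolpyruvate carboxylase (log2 fold change -0.40, SE 0.10, adjusted p = 0.0184). PPC1 lost its call without msh1 replicate 1 or 3 or cue1 replicate 3 (adjusted p 0.0597 to 0.0673), and up to 3 members were higher when a library was left out (wild-type replicate 3).

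Downstream of phosphoenolpyruvate, most of the pathway genes that were called were lower in msh1 than in cue1. In the shikimate pathway 4 of 13 tested were lower and 0 higher (30.8% called, against 22% of all genes). The count of 4 was 0 without msh1 replicate 1 or cue1 replicate 3. The changes were small in SK1, a shikimate kinase (-0.48), CM3, a chorismate mutase (-0.54), and DHS1, which makes the first intermediate of the pathway (-0.35), none of which was called without msh1 replicate 1 (adjusted p 0.051 to 0.0871). In aromatic amino acid synthesis 5 of 14 were lower and 1 higher, PAI1 (0.39), a step of tryptophan synthesis. PAI1 was not called with any one msh1 library, cue1 replicate 1 or 3 or wild-type replicate 2 left out (adjusted p 0.0532 to 0.147). TSB2, the second tryptophan synthase beta subunit, had 12.7 ± 1.04 CPM in msh1, 24.6 ± 1.28 CPM in cue1 and 27 ± 3.67 CPM in wild type (mean ± SD, n = 3 each; log2 fold change -0.95, SE 0.11, adjusted p = 0.000466). ADT5, an arogenate dehydratase on the way to phenylalanine, had 15.7, 16.8 and 16.5 CPM in msh1, 25.6, 24.9 and 27.4 CPM in cue1 and 30.1, 26.5 and 27.6 CPM in wild type (log2 fold change -0.67, SE 0.08, adjusted p = 0.000626). PAT1, the second step of tryptophan synthesis, fell by 0.61 on the log2 scale. The cue1 libraries overlapped wild type in TSB2 and ADT5, and msh1 lay below both. Without cue1 replicate 1, 8 members were lower.

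In phenylpropanoid and lignin synthesis 7 of 16 were lower and 1 higher in msh1, with a median of -0.399. CAD5, a cinnamyl alcohol dehydrogenase of lignin synthesis, had 23.4, 24.2 and 20 CPM in msh1, 42.9, 42.4 and 43.9 CPM in cue1 and 52.8, 49.5 and 55.5 CPM in wild type (log2 fold change -0.93, SE 0.09, adjusted p = 0.00016). FAH1, a ferulate hydroxylase of sinapate synthesis (log2 fold change -0.49, SE 0.10, adjusted p = 0.00587), and CCoAOMT1, a methyltransferase of lignin precursors (log2 fold change -0.43, SE 0.08, adjusted p = 0.00525), fell with it. Of the phenylalanine ammonia lyases, which open the pathway, PAL1 fell (log2 fold change -0.56, SE 0.12, adjusted p = 0.00795) and PAL3 rose (log2 fold change 0.67, SE 0.14, adjusted p = 0.00755). In flavonoid and anthocyanin synthesis 8 of 18 were lower and 0 higher, with a median of -0.722. Cue1 replicate 1 was the highest of the 9 libraries in 12 of the 18, and the median was -0.494 without it. MYB75, the transcription factor that switches on anthocyanin synthesis, had 1.18 ± 0.681 CPM in msh1, 14.1 ± 3.18 CPM in cue1 and 11.4 ± 3.62 CPM in wild type (mean ± SD, n = 3 each), and no msh1 library reached the range of either (log2 fold change -3.56, SE 0.37, adjusted p = 0.000238). TT4, chalcone synthase, had 57.1, 69.6 and 49.7 CPM in msh1, 149.9, 94.1 and 120.1 CPM in cue1 and 115, 138 and 149 CPM in wild type (log2 fold change -1.05, SE 0.17, adjusted p = 0.00255). TT7 (-1.09), a later enzyme of the same chain, fell too, as did F3H (-1.19), of which 0.938 of the exon length lies under an antisense gene. The count was 5 without msh1 replicate 1, msh1 replicate 3 or cue1 replicate 1.

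Salicylic acid genes made up one of the widest gaps between the mutants. Of 22 tested, 17 were lower and 0 higher in msh1, with a median of -1.326. Salicylic acid is the hormone of defence against biotrophic pathogens, and PR1, its classical marker, had 18.9, 42.1 and 31.5 CPM in msh1, 108, 108 and 403 CPM in cue1 and 47.8, 47.2 and 72.2 CPM in wild type (log2 fold change -2.74, SE 0.49, adjusted p = 0.00376). Every msh1 library was below every wild-type library and every cue1 library was above. PR2, a beta-glucanase, had 44.4, 95.7 and 68.2 CPM in msh1, 319, 584 and 983 CPM in cue1 and 504, 340.3 and 325 CPM in wild type (log2 fold change -3.18, SE 0.39, adjusted p = 0.000592). PR5, a thaumatin-like protein, was lower as well (log2 fold change -2.58, SE 0.41, adjusted p = 0.00214). ALD1, the first enzyme of pipecolic acid synthesis, had 0.396, 0.487 and 0.844 CPM in msh1, 2.54, 5.76 and 15.3 CPM in cue1 and 3.52, 1.84 and 1.65 CPM in wild type (log2 fold change -3.77, SE 0.66, adjusted p = 0.00321). FMO1, which turns pipecolic acid into the mobile signal of systemic resistance, followed (log2 fold change -3.26, SE 0.67, adjusted p = 0.00726). Against wild type most of the list did not pass in either mutant: of 22 genes, 7 were lower (against 16% of all genes) and 1 higher (against 3609 of 20785 genes) in msh1, with a median of -0.778, and 3 were higher and 0 lower in cue1 (against 3.34% and 3.42% of all genes), with a median of 1.074. Without cue1 replicate 3, a setting added after the data were seen, the median for cue1 was 0.326 and 1 gene was higher, and without cue1 replicate 1 it was 1.372 and 14 were higher. In PR2 and ALD1 the cue1 libraries overlapped wild type. Both comparisons share the wild-type libraries.

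One library bears on the size of that gap. Cue1 replicate 3 was the highest of the 9 libraries in all 22 salicylic acid genes. Without it 14 of the 22 were still lower in msh1, the median was -0.831, and PR1, FMO1, PBS3, CBP60g and ICS1 moved by more than 1.5 times, to -1.82, -2.0, -1.43, -0.75 and -0.59. PBS3 completes salicylic acid synthesis, ICS1 begins it and CBP60g is a transcription factor that activates ICS1. ICS1 was not called without msh1 replicate 1 (adjusted p = 0.0606) or 2 (0.0557), nor CBP60g without msh1 replicate 3 (0.0664). The same library was highest in 9 of 13 senescence genes, whose median was -0.88, and -0.466 without that library. Of the 13, 7 were lower and 0 higher in msh1. Among these, SAG13, an early senescence marker, had 8.16, 8.43 and 4.33 CPM in msh1, 26.8, 31.2 and 107 CPM in cue1 and 14.3, 15.6 and 22.7 CPM in wild type (log2 fold change -2.98, SE 0.50, adjusted p = 0.00265). PPH, pheophytinase of chlorophyll breakdown, fell as well (log2 fold change -0.80, SE 0.10, adjusted p = 0.000634). JUB1, a NAC factor that delays senescence, was lower too (log2 fold change -1.54, SE 0.29, adjusted p = 0.00517). SAG12, the late senescence marker, had 2.38, 0 and 0 CPM in msh1 and 0.0438, 4.26 and 106 CPM in cue1, was at 0 in wild type and was not called (adjusted p = 0.0622).

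Jasmonate genes separated the mutants without leaning on one library. Of 23 tested, 19 were lower and 0 higher in msh1, with a median of -1.265, and the count was 19 or 20 whichever library was left out. Jasmonate is made from linolenic acid in plastids and peroxisomes, and the synthesis genes fell from the first step on. LOX2, the plastid lipoxygenase, had 1074, 1730 and 1027 CPM in msh1, 4628, 5665 and 5609 CPM in cue1 and 7106, 6355 and 3726 CPM in wild type (log2 fold change -2.05, SE 0.26, adjusted p = 0.000686). AOS, allene oxide synthase, had 198, 286 and 206 CPM in msh1, 598, 839.7 and 703 CPM in cue1 and 963, 985 and 663 CPM in wild type (log2 fold change -1.64, SE 0.20, adjusted p = 0.000488). AOC1 (-2.31), OPR3 (-1.17) and JAR1 (-0.48), which carry the chain on to the active conjugate, were lower too. In LOX2, AOS, OPR3 and JAR1 cue1 overlapped wild type and msh1 lay below both, while AOC1 was below wild type in cue1 and lower still in msh1.

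Signalling and target genes of jasmonate fell as well. MYC2, its main transcription factor, with 0.985 of its exon length under an antisense gene, had 64.7, 77.1 and 53.2 CPM in msh1, 144, 139 and 164 CPM in cue1 and 178, 168 and 134 CPM in wild type (log2 fold change -1.20, SE 0.14, adjusted p = 0.000534). The repressors JAZ1 (log2 fold change -1.34, SE 0.12, adjusted p = 0.00014) and JAZ9 (log2 fold change -1.77, SE 0.17, adjusted p = 0.000183) were lower. CYP94B3, which breaks the hormone down, had 0, 0.536 and 0.105 CPM in msh1, against 1.93, 9.86 and 3.1 CPM in cue1 and 9.2, 15.2 and 13.7 CPM in wild type (log2 fold change -4.44, SE 0.82, adjusted p = 0.00434). VSP2, a vegetative storage protein used as a wound marker, had 26.2, 36.5 and 13.8 CPM in msh1, 301, 236 and 229 CPM in cue1 and 257, 239 and 238 CPM in wild type (log2 fold change -3.32, SE 0.27, adjusted p = 9.69e-05). PDF1.2, the marker of the ethylene-dependent branch, spread too widely to be called, at 641, 491 and 36.8 CPM in msh1 and 295, 48 and 148 CPM in cue1 (log2 fold change 1.25, SE 0.98, adjusted p = 0.389). ST2A, a sulfotransferase of hydroxyjasmonate, was among the 12 lowest of the called genes that had a mean of at least 5 CPM in one mutant and no overlap between the mutants (log2 fold change -4.08, SE 0.48, adjusted p = 0.000442).

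Glucosinolates are the sulfur-rich defence compounds of the mustard family. Of 25 tested genes of their synthesis, 18 were lower and 0 higher in msh1, with a median of -0.544. CYP79B2 and CYP79B3, which start the indolic branch from tryptophan, had means of 62.5 ± 8.32 and 53.5 ± 8.87 CPM in msh1, 128 ± 10.5 and 109 ± 8.91 CPM in cue1 and 170.4 ± 3.93 and 169 ± 9.2 CPM in wild type (SD, n = 3), and each had a log2 fold change of -1.03 (adjusted p = 0.000243 and 0.000442). SOT17, a desulfoglucosinolate sulfotransferase of the aliphatic branch, fell by as much (log2 fold change -1.02, SE 0.14, adjusted p = 0.00108). MYB122, a regulator of the indolic branch, had 1 count over the msh1 libraries and 38 over the cue1 libraries, a ratio of cue1 to msh1 of 36.7 (95% interval 6.2 to 1490 from counting error alone). CYP79F1 (-0.89) and its partner CYP79F2 (-0.89) of the aliphatic branch fell together. They are close paralogs, between which reads could be split, so the value of each is uncertain. The count of 18 was 14 to 19 with single libraries left out.

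Of 27 tested genes of the cold, drought and abscisic acid list, 21 were lower and 0 higher in msh1, with a median of -1.374, and the count was 19 to 21 whichever library was left out. Cue1 replicate 1 was the highest of the 9 libraries in 15 of the 27, and the median was -1.19 without it. COR15A, a cold-induced protein that protects plastid membranes, had 110.3, 128 and 69.7 CPM in msh1, 1186, 531 and 822 CPM in cue1 and 991, 937 and 551 CPM in wild type (log2 fold change -3.04, SE 0.33, adjusted p = 0.00031). P5CS1, which limits proline synthesis, had 85.1, 73 and 97 CPM in msh1, 332, 251 and 197 CPM in cue1 and 328, 328 and 342 CPM in wild type (log2 fold change -1.61, SE 0.17, adjusted p = 0.000265). RD22, a dehydration gene, had 326, 306 and 233 CPM in msh1, 1022, 864 and 702 CPM in cue1 and 737, 662 and 581 CPM in wild type (log2 fold change -1.58, SE 0.17, adjusted p = 0.000272). No msh1 library reached the cue1 range in any of these 3 genes.

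Regulators in that list fell with their targets. CBF3, a cold-induced transcription factor that activates COR genes, had 6.68, 6.72 and 7.54 CPM in msh1, 37.8, 15.2 and 22.8 CPM in cue1 and 16.4, 14.5 and 8.65 CPM in wild type (log2 fold change -1.86, SE 0.31, adjusted p = 0.00251). Of the phosphatases that hold back abscisic acid signalling and are themselves induced by it, ABI1 (-0.65), ABI2 (-1.31), HAB1 (-1.10), PP2CA (-1.11) and HAI1 (-2.0) were all lower. RD29B, a strict abscisic acid target, had 0.0495, 0.292 and 0.317 CPM in msh1, 2.15, 10.1 and 1.06 CPM in cue1 and 7.31, 12.1 and 11 CPM in wild type (log2 fold change -4.27, SE 0.92, adjusted p = 0.00894). COR15B and KIN1, relatives of the cold genes above, stood on opposite sides of wild type in cue1 (log2 fold change 1.35 and -1.0, cue1 minus wild type), while both were lower in msh1 than in cue1 (-1.59 and -2.62).

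**Figure D3:**
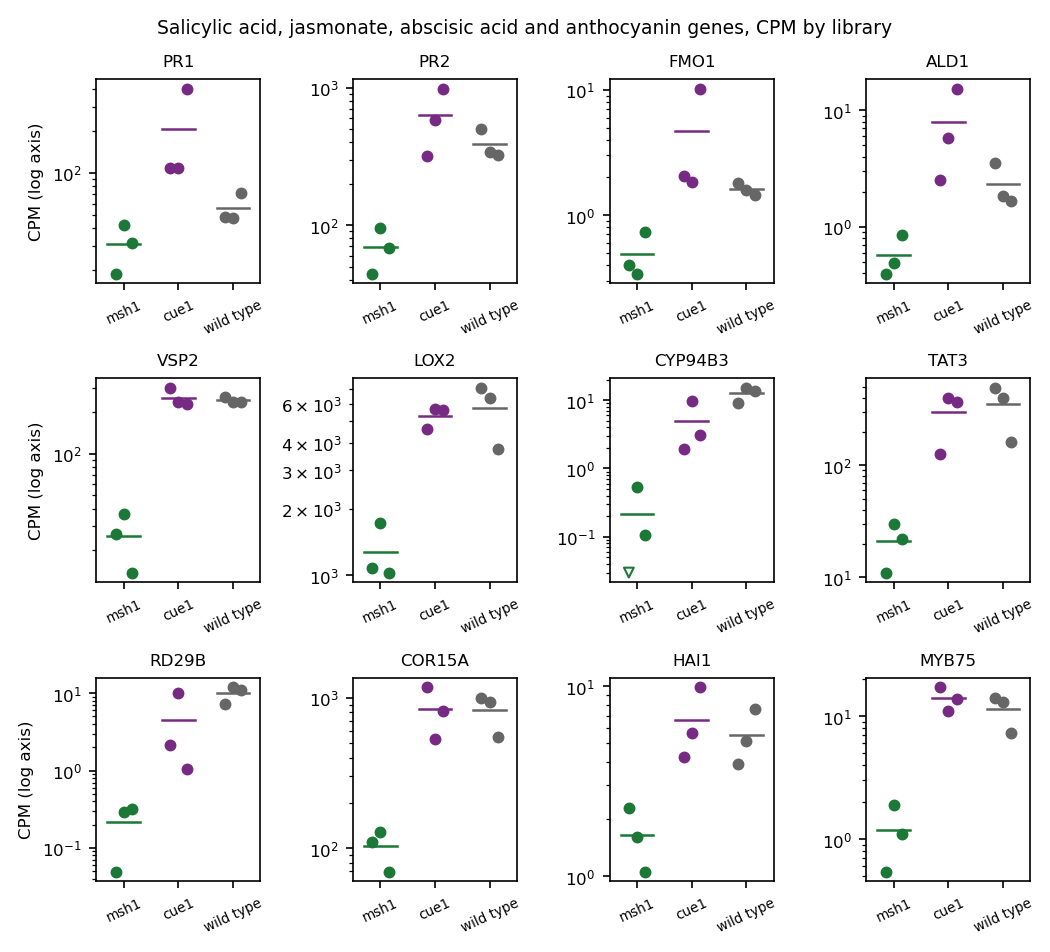
CPM (log axis) of 12 salicylic acid, jasmonate, abscisic acid, cold and anthocyanin genes in each library of msh1, cue1 and wild type; bars are group means and open triangles on the lower edge are libraries at 0. The msh1 libraries lie below the cue1 libraries in all 12, and cue1 replicate 3 is the highest point in the PR1, PR2, FMO1 and ALD1 panels.

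Of 12 tested heat shock and protein folding genes, 4 were lower (33.3%, against 11.8% of all genes) and 0 higher in msh1. BIP3, the stress-induced HSP70 of the endoplasmic reticulum, had 0.94, 1.22 and 2.53 CPM in msh1, 16.7, 26.9 and 38.9 CPM in cue1 and 16.8, 11.1 and 11.8 CPM in wild type (log2 fold change -4.14, SE 0.38, adjusted p = 0.000145). The cytosolic HSP70 gene AT3G12580 (log2 fold change -1.62, SE 0.19, adjusted p = 0.000479) and the heat shock factor HSFB1 (log2 fold change -1.29, SE 0.24, adjusted p = 0.00446) fell too. HSP101 (0.11) and HSFA2 (-0.13), which define the heat response, were not called.

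Other genes at the lower extreme ranged over defence and metabolism. AT1G75945, an uncharacterized protein, had 0, 1 and 0 counts in msh1, against 143, 118 and 186 counts in cue1, a ratio of cue1 to msh1 of 432 (95% interval 77.1 to 17100 from counting error alone), and 5.47, 5.39 and 5.13 CPM in wild type. UGT76B1, a glycosyltransferase of isoleucic acid and salicylic acid, had 0.0989, 0.195 and 0.211 CPM in msh1, 3.94, 7.21 and 9.47 CPM in cue1 and 9.52, 7.04 and 1.5 CPM in wild type (log2 fold change -5.30, SE 0.78, adjusted p = 0.00133). AT3G28270, a DUF677 membrane protein, had the smallest adjusted p of the 12 lowest called genes of that level, at 1.14, 1.56 and 1.27 CPM in msh1, 33.9, 33.9 and 30.5 CPM in cue1 and 41.3, 44.4 and 40.3 CPM in wild type (log2 fold change -4.62, SE 0.12, adjusted p = 6.97e-09). The others of the 12 lowest were AT3G28220, a TRAF-like protein (-4.47), AT3G28510, a P-loop nucleoside triphosphatase (-4.06), ST2A, described above, BIP3, also above, and 5 more. AT4G10500 (-4.03) and AT2G38240 (-3.95) are oxoglutarate-dependent oxygenases. DIP2 is an E3 ubiquitin ligase (-4.21), LTP3 is a lipid transfer protein (-4.00), and RNS1 is a ribonuclease induced by phosphate starvation and wounding (-3.89).

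The circadian clock differed in most of its genes. Of 28 tested, 9 were higher and 12 lower in msh1, with a median of -0.273. The plant clock is a loop of repressors that peak at successive hours, from CCA1 and LHY at dawn through the PRR genes by day to TOC1 and the evening complex of ELF3, ELF4 and LUX at dusk. The dawn genes were lower in msh1. CCA1 had 4.7, 2.83 and 4.43 CPM in msh1, 13.2, 8.76 and 13.4 CPM in cue1 and 131, 134 and 143 CPM in wild type (log2 fold change -1.58, SE 0.19, adjusted p = 0.000568). LHY had 1.53, 1.32 and 1.53 CPM in msh1, 3.42, 2.65 and 4.21 CPM in cue1 and 35.4, 39.5 and 51.9 CPM in wild type (log2 fold change -1.24, SE 0.23, adjusted p = 0.00467). Both mutants were far below wild type, and msh1 was below cue1. RVE8, a relative of CCA1 that activates evening genes (log2 fold change -1.53, SE 0.22, adjusted p = 0.00125), and its partner LNK3 (log2 fold change -1.22, SE 0.12, adjusted p = 0.000232) fell with them. PRR9, the morning repressor, was lower as well (log2 fold change -2.08, SE 0.22, adjusted p = 0.000243), but it shares a stretch of 908 bases at 99.7% identity with AT2G46670, so its counts are uncertain.

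Evening genes were higher in msh1. TOC1 had 167, 143 and 140.4 CPM in msh1, 94.6, 109 and 105 CPM in cue1 and 39.5, 34.3 and 29.7 CPM in wild type (log2 fold change 0.55, SE 0.11, adjusted p = 0.00708). LUX had 68.4, 77.5 and 69.2 CPM in msh1, 35.6, 46.7 and 39.7 CPM in cue1 and 16.1, 19.2 and 21.8 CPM in wild type (log2 fold change 0.82, SE 0.12, adjusted p = 0.00142). ELF4 had 63, 57.5 and 59.1 CPM in msh1, 32.8, 35.9 and 35 CPM in cue1 and 16.4, 17.5 and 11 CPM in wild type (log2 fold change 0.79, SE 0.13, adjusted p = 0.00272). The order was msh1, then cue1, then wild type, with no overlap. JMJD5, a clock-linked histone demethylase, had 49.2, 47.6 and 43.2 CPM in msh1, 17.3, 15.6 and 15.9 CPM in cue1 and 5.05, 4.83 and 5.88 CPM in wild type (log2 fold change 1.52, SE 0.09, adjusted p = 1.2e-05). COR27, a cold and clock regulator, had 47.2 ± 1.43 CPM in msh1, 24.1 ± 1.47 CPM in cue1 and 3.17 ± 0.843 CPM in wild type (mean ± SD, n = 3 each; log2 fold change 0.97, SE 0.12, adjusted p = 0.000626). RVE2, a MYB-like factor, departed from that order: it was high in msh1 alone, at 16.3, 12 and 7.49 CPM, against 1.49, 2.02 and 2.17 CPM in cue1 and 1.42, 1.41 and 3.1 CPM in wild type (log2 fold change 2.66, SE 0.34, adjusted p = 0.000694). GI (-0.04) and FKF1 (0.06), which work together in day-length sensing, were not called. Since the hour of harvest is not given, a difference in phase and a difference in level cannot be told apart.

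**Figure D4:**
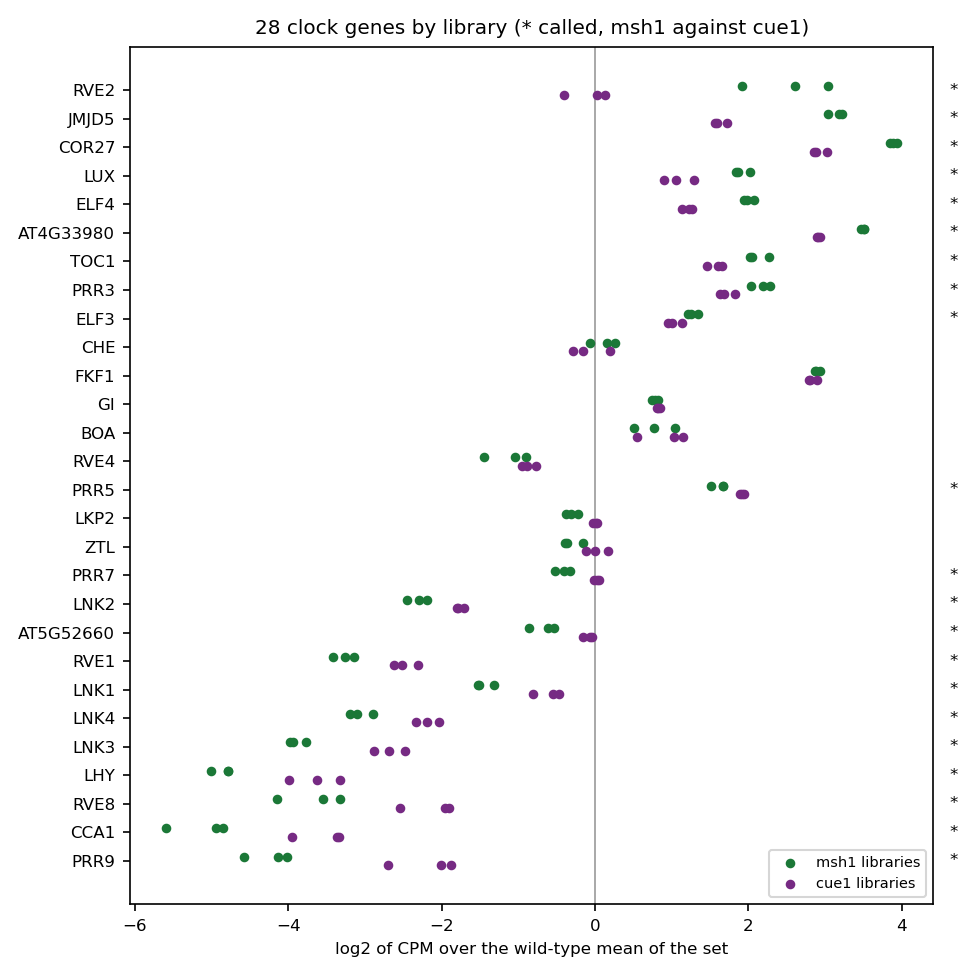
Log2 ratio of the CPM in each msh1 library (green) and cue1 library (purple) to the wild-type mean, for 28 clock genes ordered by msh1 minus cue1; an asterisk marks genes called between the mutants. For CCA1, LHY, LNK3 and RVE8 the msh1 points lie farther below 0 than the cue1 points, and for JMJD5, COR27, LUX, ELF4 and TOC1 farther above.

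The evening element AAATATCT, a motif known from evening-phased promoters, was in 6 of the 9 clock genes called higher 2 of the 12 called lower and 2 of the 7 not called, against 1212 of 20780 promoters (5.83%), on either strand and over the same 300 bases. Of all genes called higher 5.95% held it, and of all called lower 7.78%. The G-box CACGTG was in 9 of the 12 clock genes called lower and 2 of the 9 called higher, against 8.49% of all promoters, and in 15.3% of all genes called lower. The CCA1 site AAAAATCT was in 2 of the 9 and 2 of the 12, against 7.99%. One evening element of each of the 6 genes is shown, from RefSeq TAIR10.1 on the gene's strand with the element in capitals, since these 6 genes hold it.
JMJD5, chr3:7275648-7275671, plus strand: gatacgaaAAATATCTgatcctaa
COR27, chr5:17199914-17199937, minus strand: gttgaagaAAATATCTttgatatt
ELF4, chr2:16734944-16734967, minus strand: tactcagaAGATATTTactataaa
LUX, chr3:17182982-17183005, plus strand: aagatctaAAATATCTagctaact
AT4G33980, chr4:16285182-16285205, minus strand: ccaaaaaaAAATATCTggctgata
TOC1, chr5:24674804-24674827, plus strand: atatcatgAGATATTTtctccaag
ELF4 and COR27 hold 4 matches each and LUX and JMJD5 hold 2 each. RVE2, the clock gene with the largest rise, holds none in this window.

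Flowering time genes gave 1 higher and 4 lower of 21 tested (23.8%), near the 22% called of all genes. MAF5, a repressor related to FLC, had 0.0989, 0.146 and 0.0527 CPM in msh1, 0.701, 0.98 and 0.601 CPM in cue1 and 30.3, 25.5 and 22.7 CPM in wild type: both mutants were far below wild type, and msh1 was lower than cue1 at a level of under 1 CPM (log2 fold change -2.82, SE 0.42, adjusted p = 0.00147). It was not called when all 30 libraries shared one fit (adjusted p = 0.142). TEM1, a repressor of FT, rose (log2 fold change 0.94, SE 0.15, adjusted p = 0.00176), and CDF3, a DOF repressor of CO, fell (log2 fold change -0.60, SE 0.10, adjusted p = 0.00339). Without cue1 replicate 2, 8 members were lower.

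Photosynthesis differed little between the mutants. Of 21 light-harvesting genes tested, 3 were lower and 0 higher in msh1 (14.3% called, against 22% of all genes). All 3 were LHCB2 genes, whose proteins form part of the mobile antenna of photosystem II. LHCB2.1 had 987, 900.3 and 1387 CPM in msh1, 2064, 2240 and 1669 CPM in cue1 and 4783, 4742 and 3813 CPM in wild type (log2 fold change -0.87, SE 0.18, adjusted p = 0.00825), so that both mutants were below wild type and msh1 was the lower. LHCB2.2 was similar (log2 fold change -0.71, SE 0.15, adjusted p = 0.00949). LHCB2.3 (-0.96) overlapped between the mutants and was not called without msh1 replicate 1 or 2 (adjusted p = 0.0727 and 0.0723). It has 0.406 of its exon length under an antisense gene. Of 38 core and Calvin cycle genes, 2 were higher and 0 lower: RBCS1B, a small subunit of Rubisco (log2 fold change 1.01, SE 0.20, adjusted p = 0.00593), and CP12-2, a regulator of the cycle (log2 fold change 0.66, SE 0.12, adjusted p = 0.00405). Without cue1 replicate 2 these counts were 3 higher in light harvesting and 12 higher in the core. RBCS1B was not searched for copies of near-identical sequence, so its value is uncertain.

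Starch and sugar genes were called in 13 of 29 cases (44.8%, against 22% of all genes), 4 higher and 9 lower in msh1. GBSS1, the granule-bound starch synthase that makes amylose, had 10.5, 10.3 and 11.5 CPM in msh1, 64.3, 36.4 and 66.7 CPM in cue1 and 141, 139 and 117 CPM in wild type (log2 fold change -2.38, SE 0.20, adjusted p = 9.69e-05). BAM5, a beta-amylase, was lower as well (log2 fold change -2.27, SE 0.30, adjusted p = 0.000792). SEN1, which rises in darkness and sugar starvation, had 15.5, 10.2 and 20.6 CPM in msh1, 2.1, 2.08 and 3.37 CPM in cue1 and 23.8, 12.1 and 14.9 CPM in wild type. Here msh1 overlapped wild type and cue1 lay below both (log2 fold change 2.60, SE 0.33, adjusted p = 0.000623). DIN10, a dark-induced raffinose synthase relative, had 101, 96.6 and 111 CPM in msh1, 25.5, 64.7 and 32.4 CPM in cue1 and 64.5, 62.4 and 46.7 CPM in wild type (log2 fold change 1.34, SE 0.27, adjusted p = 0.00664). BT2, a BTB and TAZ domain protein that responds to sugar and nitrogen, had 63.4, 69.7 and 53.8 CPM in msh1, 2.06, 13.5 and 2.59 CPM in cue1 and 1.16, 1.04 and 4.37 CPM in wild type (log2 fold change 3.42, SE 0.57, adjusted p = 0.0026).

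Nutrient genes gave 9 higher and 4 lower of 36 (36.1% called, against 22% of all genes), and the 9 became 3 without msh1 replicate 1. GDH1, glutamate dehydrogenase, rose (log2 fold change 0.67, SE 0.09, adjusted p = 0.000694), GLN1;1, a cytosolic glutamine synthetase, fell (log2 fold change -0.80, SE 0.17, adjusted p = 0.00786), and FER3, a plastid ferritin, rose (log2 fold change 0.53, SE 0.12, adjusted p = 0.0108). Of 17 genes for reactive oxygen 4 were called, a share near the 22% of all genes. Of these, 2 were higher, FSD2 (log2 fold change 0.86, SE 0.19, adjusted p = 0.0105) and FSD3 (log2 fold change 0.75, SE 0.16, adjusted p = 0.00776), which encode iron superoxide dismutases of plastid nucleoids. CAT2, the leaf catalase of photorespiration, was lower, at 138, 110.1 and 165 CPM in msh1, 283, 283 and 287 CPM in cue1 and 699, 768 and 659 CPM in wild type (log2 fold change -1.04, SE 0.14, adjusted p = 0.00072). The second lower gene, APX1, lost its call without msh1 replicate 1 or 2 or any one cue1 replicate (adjusted p 0.056 to 0.101). MRD1 (3.17) was among the 12 highest called genes by the same rule, but 0.898 of its exon length lies under an antisense gene, so that without a stated strand setting its reads cannot be told apart from that gene's. AT4G15670 and AT4G15690, neighbouring thioredoxin superfamily genes, rose (2.87 and 2.52) and were not called without msh1 replicate 3 (adjusted p = 0.0671 and 0.0538), the first also not without cue1 replicate 1 (0.0524).

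Markers of other tissues and of dividing cells were read in the same libraries. Of 10 leaf markers, 1 was called, CAT2. In bulk tissue, fewer cells of a type and less RNA per cell cannot be told apart. The 14 genes of dividing cells summed to 307 to 355 CPM in msh1, 218 to 233 CPM in cue1 and 177 to 224 CPM in wild type, and 8 of them were higher in msh1 and 0 lower (exact permutation test of the sums, two-sided p = 0.1, which is the smallest that 3 against 3 allows). PCNA1, the replication clamp (log2 fold change 0.54, SE 0.11, adjusted p = 0.00675), MCM5, of the replicative helicase (log2 fold change 0.41, SE 0.09, adjusted p = 0.00784), and CYCB1;2, a mitotic cyclin (log2 fold change 0.60, SE 0.12, adjusted p = 0.00701), led them. The count of 8 became 4 without msh1 replicate 3 or cue1 replicate 3. Msh1 replicate 3 was the highest of the 9 libraries in 11 of the 14. Genes for DNA and histone modification gave 4 higher and 0 lower of 21 (19% called, near the 22% of all genes). Among the 4 were CMT3 (0.53), MET1 (0.54) and DDM1 (0.36), the maintenance methyltransferases and a remodeller. Without msh1 replicate 3 or cue1 replicate 3 the count of 4 was 1, and MET1 and DDM1 were not called (adjusted p 0.0564 to 0.139). Neither was called without cue1 replicate 1 (0.0536 and 0.107), and DDM1 was not without msh1 replicate 1 or 2 or wild-type replicate 2 (0.0572 to 0.0705). The part of dividing cells in these and in the organelle DNA genes was not tested.

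Flower markers were low in CPM, and few flower or stem markers were called between the mutants. All 12 flower markers listed, tested or not, summed to 14.6 to 20.8 CPM in msh1, 11.3 to 16.7 CPM in cue1 and 6.68 to 9.85 CPM in wild type. Of the 10 tested, SEP3, a floral organ identity gene, was the 1 called between the mutants (log2 fold change 1.55, SE 0.42, adjusted p = 0.0245). It was not called with any one msh1 library or cue1 replicate 3 left out (adjusted p 0.0546 to 0.087). Against wild type, 7 of the 10 were higher in msh1 (against 3609 of 20785 genes) and 0 lower, with a median of 2.628. In cue1, 2 were higher (against 3.34% of all genes) and 0 lower, with a median of 1.82. Both of these comparisons share the wild-type libraries. Msh1 replicates 2 and 3 were each the highest of the 9 libraries in 4 of these 10 markers. The part of floral tissue in these differences was not tested. Of 11 tested genes of the secondary wall of stems, 3 were higher in msh1 (27.3% called, against 22% of all genes). These were XCP2, LAC17 and LAC4 (log2 fold change 0.39, 0.48 and 0.39), and 0 of the 11 were called without msh1 replicate 2, msh1 replicate 3 or cue1 replicate 3. The sums of the 12 listed, with the untested SND1, were 170 to 224 CPM in msh1, 137 to 175 CPM in cue1 and 197 to 221 CPM in wild type. SND1, the master regulator of fibre walls, was at 0 in both mutants. Of 3 root markers tested, 0 were called.

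Each mutant was also set against the shared wild type. Of all genes, 3609 of 20785 were higher and 16% lower in msh1, and 3.34% were higher and 3.42% lower in cue1, so counts for the 2 mutants stand on unlike backgrounds. In the jasmonate list the median was -1.585 for msh1 and -0.222 for cue1, with 21 and 1 of 23 genes lower. In the cold, drought and abscisic acid list it was -1.193 for msh1 and 0.257 for cue1, with 20 and 4 of 27 lower. Organelle genome maintenance stood at 0.643 for msh1 and 0.158 for cue1, with 13 and 3 of 21 higher, MSH1 itself in both counts. Light harvesting stood at -0.602 for msh1 and -0.57 for cue1, with 13 and 7 of 21 lower. The values for cue1 moved most when a library was left out, which was added after the data were seen: without cue1 replicate 1 its median was -0.087 in the jasmonate list and 0.072 in the cold list. Its 3 higher genes for organelle genome maintenance were 0 without cue1 replicate 3 or wild-type replicate 1 or 2, and its 7 lower genes for light harvesting were 18 without cue1 replicate 2. These pairs share the 3 wild-type libraries and are given side by side without a test of their likeness.

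**Figure D5:**
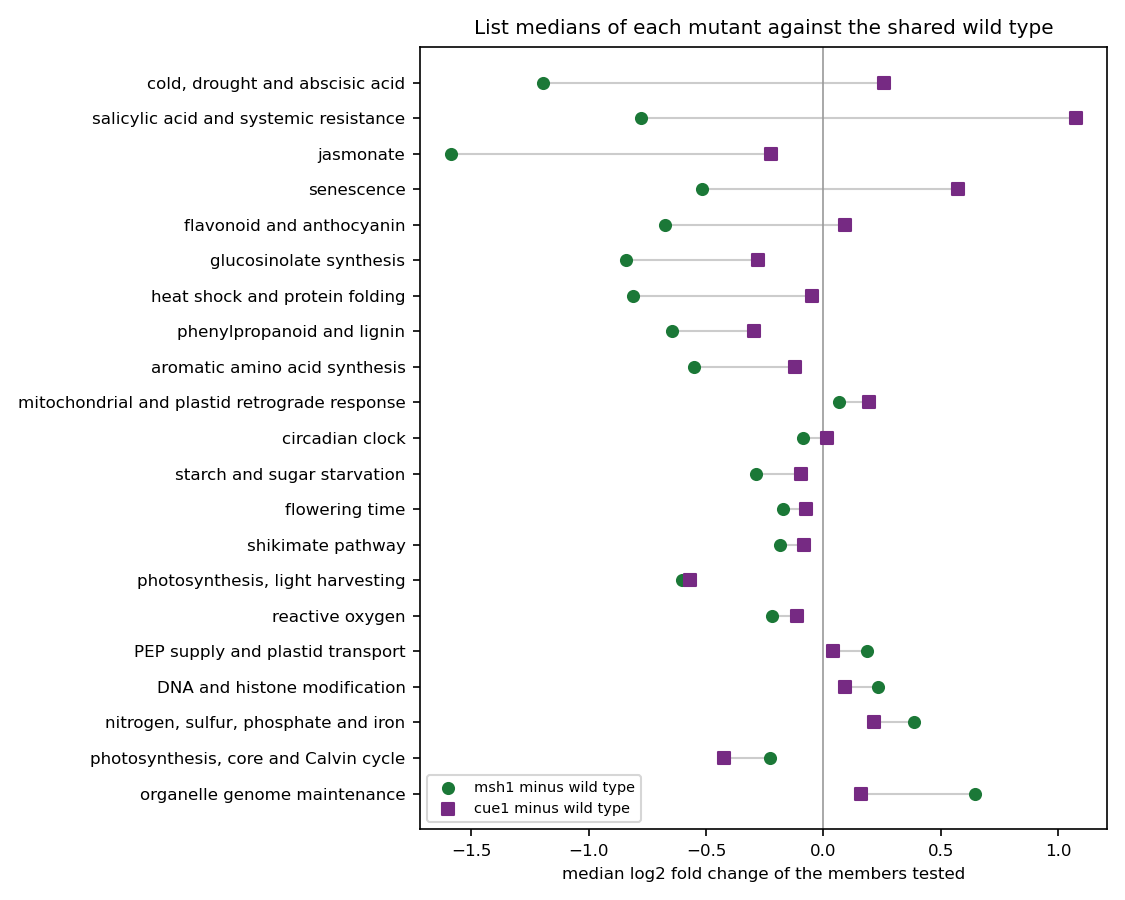
Median log2 fold change against the shared wild type of the tested members of 21 gene lists, msh1 (green circles) and cue1 (purple squares) joined by a line. The mutants lie far apart in the cold, drought and abscisic acid, salicylic acid and jasmonate lists and almost together in light harvesting, at -0.602 and -0.57.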

How the data were processed

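Leaf RNA of msh1, cue1 and wild type, 3 libraries each, had been sequenced as paired ends. Per the submitters' processing notes, Trim Galore 0.6.6, cutadapt 2.8 and STAR 2.7.10a were used, and the build was TAIR10. No source used here names the counter or its strand setting. The authors deposited whole-number counts per gene for each library; entries that name no gene (48% to 48.6% on no feature) were left out. Library totals of 17568323 to 22275044 counts set the precision, and intervals and floors cover counting error only.

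Genes were kept by filterByExpr with a minimum count of 10, scaled by TMM and tested with edgeR 4.0.16 (glmQLFit and glmQLFTest, R 4.3.3, limma 3.58.1) in one fit of the 9 libraries, contrast msh1 minus cue1, with Benjamini-Hochberg adjustment over 20785 genes and calls at an adjusted p under 0.05. CPM use TMM library sizes. SE is the log2 fold change divided by the square root of F. On simulated counts (20650 genes) known changes were placed in well-counted genes only. The test recovered 79% of those changed by 1 and 100% of those changed by 2 on the log2 scale, and it called 14 unchanged genes. Recovery in genes with few counts was not simulated. P-values measure the spread between sibling samples, which may be partly technical. No pair of same-numbered libraries deviated together (0 of 9 correlations over 0.1), so the numbers were not used as pairs.

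Named genes were MSH1 and CUE1, then the 12 called genes with the highest and the 12 with the lowest fold change (mean CPM of 5 or more in one mutant, libraries not overlapping), and then, per list, the 3 calls that rank first by adjusted p if it has 3 or more. Further members are named to fill out a pathway and were chosen after their values were seen. The comparison and its 21 gene lists and 5 marker lists were chosen with earlier results of these data known. Alternatives were DESeq2 1.42.0, other size factors, no filter, other sets of libraries, a replicate block and each library left out. Promoters were read from RefSeq TAIR10.1.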

Additional observations from a re-analysis of the deposited data

How the results depend on the processing

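Under every alternative run, 0 of the genes called in both fits turned direction. The 4575 genes called between msh1 and cue1 became 5020 with DESeq2 (4 genes with no adjusted p), 4594 with its size factors, 4529 with no filter on low counts, 4116 in a fit of the 6 mutant libraries and 5056 in a fit of all 30. With libraries left out one at a time the called genes numbered 2614 (without msh1 replicate 3) to 4941 (without wild-type replicate 3), those higher in msh1 984 (without cue1 replicate 3) to 2333, those lower 1566 (without msh1 replicate 3) to 2608, and the list members called 167 to 227, against 207. Without msh1 replicates 1 and 2 in turn 3023 and 2972 were called, and 2672 without cue1 replicate 3. The share of calls higher in msh1 was 46.3% and became 36.8% without cue1 replicate 3 and 37.1% without cue1 replicate 1. A replicate block gave 3608 calls. Same-numbered msh1 and cue1 libraries had correlations of -0.157 to -0.0554, and cue1 replicate 2 with msh1 replicate 3 reached 0.146. The numbers were not used as pairs, though this check cannot exclude a batch shared by some libraries. Of 780 list counts recomputed, 710 stayed within 1.5 times of their value and 70 did not. In one fit of all 30 libraries 8 named genes were not called: MAF5, CYCB1;2, TT7, DHS1, DDM1, XCP2, LAC17 and LAC4 (adjusted p = 0.142, 0.184, 0.0596, 0.0847, 0.228, 0.318, 0.183 and 0.229). The causes were not tested. With 3 libraries a group, changes of 1 on the log2 scale were found in part only in the simulation, which covered well-counted genes. At 1 to 3 counts a ratio has a wide interval.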

Other observations

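Across the 10 groups of the series, in 12 h and 16 h days, MSH1 was highest in the msh1 libraries of the 16 h set, at a mean of 26.3 CPM, against 13 CPM in cue1 and 10.1 CPM in wild type of the same set, and the other 7 groups were also lower (CPM scaled over all 30 libraries). CUE1 averaged 15.5 CPM in cue1 in 16 h days and 11.4 CPM in cue1 in 12 h days, against 89.6 to 211 CPM in the other groups.

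The 20 tested genes nearest to each mutated gene were read as well. Around CUE1, 1 was higher and 4 were lower in msh1 than in cue1, and around MSH1, 0 were higher and 4 lower. Both totals are near the 22% called of all genes. AT3G24420, near MSH1, averaged 1.37 CPM in msh1 and 8.71 CPM in cue1 (log2 fold change -2.65). AT5G33330 (chr5:12591683-12592904) overlaps the end of CUE1, which lies at 12591748. It averaged 0.936 CPM in msh1 and 0.137 CPM in cue1 (log2 fold change 2.77), and it was not called without msh1 replicate 3, cue1 replicate 1 or cue1 replicate 3. Without a stated strand setting, its reads cannot be told from those of CUE1 where the genes overlap, so its value is uncertain.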
